A study of Mus musculus with 26 samples.

Results

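Genes of the DNA damage and apoptosis programme linked to the transcription factor p53 were followed in sorted supporting cells of the mouse cochlea. They are the 3 Gadd45 genes, Pmaip1, Bbc3, Bax, Bcl2, Mdm2 and Btg2, 9 of the 48709 gene identifiers in the RNA tables. They were chosen by name after differences in RNA at 24 h had been seen, so their 24 h comparison is a description with no test. The comparisons at 48 h and the peaks near the genes were made separately.

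Mouse cochleae from postnatal day 1 were kept in culture in DAPT, which blocks Notch signalling by inhibiting gamma-secretase, or in DMSO, the solvent. At 24 h, supporting cells were sorted by GFP under the control of Lfng, giving 3 DAPT and 3 DMSO samples for RNA. At 48 h, supporting cells carried the reporter TdT recombined by Lfng-CreER, and GFP from Atoh1 was used to separate them. Permissive cells came from DAPT cultures and carried TdT and Atoh1-GFP. Nonpermissive cells came from DAPT cultures and carried TdT only. Control cells came from DMSO cultures and carried TdT only. RNA at 48 h comprised 3 permissive, 3 nonpermissive and 2 control samples. Open chromatin (ATAC) and the histone mark H3K27ac (CUT&RUN) comprised 2 samples per group each. The sort and the library kit also differ between 24 h and 48 h, so time, sort and kit cannot be told apart and no test spans them.

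As background, p53 is a transcription factor that is stabilised by DNA damage and other stresses and raises genes that halt the cell cycle or start apoptosis. GADD45 proteins are small stress sensors that bind cell cycle kinases and p38 and JNK pathway kinases. The BCL2 family decides whether the mitochondrial outer membrane is opened: BH3-only proteins such as NOXA (Pmaip1) and PUMA (Bbc3) release the effector BAX, and BCL2 holds it back. In the cochlea, loss of hair cells and supporting cells after damage is known to involve this mitochondrial route.

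The RNA libraries of 24 h held 10666000 to 13158859 counts, with Spearman correlations of 0.962 to 0.97 among replicates. Those of 48 h were shallower, at 2165340 to 4896371 counts and correlations of 0.88 to 0.909. The summed level of 12 hair cell markers was 4795 to 8019 CPM (counts scaled to library size) with DAPT and 1867 to 2249 CPM with DMSO at 24 h. At 48 h it was 5884 to 7892 CPM in permissive, 296.3 to 372.8 in nonpermissive and 152.9 to 280.5 in control cells. None of the 12 was at 0 in the permissive libraries, up to 2 were at 0 in a nonpermissive library and 3 in each control library. The summed level of 17 supporting cell markers was 1175 to 1320 CPM in permissive, 7677 to 13250 in nonpermissive and 10870 to 16120 in control cells. Mesenchyme markers summed to 230.1 to 685 CPM in permissive, 1405 to 3412 in nonpermissive, and 640.5 and 2808 in control libraries, the last value being that of replicate 2. In the H3K27ac list of nonpermissive replicate 1 the peak names carry the number 2, as do those of replicate 2; the lists share 1 identical interval and were kept as 2 samples.

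Gadd45g, Gadd45b, Gadd45a and Btg2 are shown by the 250 bases before their start sites because their levels or the peaks there carry the results below. The sequences are from the RefSeq promoter table (GRCm38.p6), which held 8 of the 9 genes; no Pmaip1 promoter was printed. Letters of a motif that was searched are in capitals. The motifs, on both strands, were E-boxes of helix-loop-helix factors (the first was CACGTG, another with different middle letters was CAGATG, and the last of these was CAGCTG), the N-box (CACNAG) of HES repressors, the core of the Notch partner RBPJ (TGGGAA), the cAMP response element (TGACGTCA) and the p53 half-site. No matches in these 4 windows overlapped.
Gadd45g, plus strand, chr13:51846425-51846674: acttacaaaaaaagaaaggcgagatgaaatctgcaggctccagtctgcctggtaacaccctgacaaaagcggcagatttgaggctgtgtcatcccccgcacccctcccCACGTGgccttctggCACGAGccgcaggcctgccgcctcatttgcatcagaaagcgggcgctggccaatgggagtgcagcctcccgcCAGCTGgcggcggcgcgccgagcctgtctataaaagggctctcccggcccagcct
Gadd45b, plus strand, chr10:80929841-80930090: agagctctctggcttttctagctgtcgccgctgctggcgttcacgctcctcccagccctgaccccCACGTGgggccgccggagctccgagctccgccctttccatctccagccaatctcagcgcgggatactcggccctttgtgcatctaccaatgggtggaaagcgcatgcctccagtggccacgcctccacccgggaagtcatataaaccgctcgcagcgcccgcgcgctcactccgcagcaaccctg
Gadd45a, minus strand, chr6:67037408-67037657: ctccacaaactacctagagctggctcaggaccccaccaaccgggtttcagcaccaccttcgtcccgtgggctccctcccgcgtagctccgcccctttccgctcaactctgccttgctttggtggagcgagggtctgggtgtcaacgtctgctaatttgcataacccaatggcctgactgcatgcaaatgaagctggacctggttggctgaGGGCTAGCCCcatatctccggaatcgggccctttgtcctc
Btg2, minus strand, chr1:134079156-134079405: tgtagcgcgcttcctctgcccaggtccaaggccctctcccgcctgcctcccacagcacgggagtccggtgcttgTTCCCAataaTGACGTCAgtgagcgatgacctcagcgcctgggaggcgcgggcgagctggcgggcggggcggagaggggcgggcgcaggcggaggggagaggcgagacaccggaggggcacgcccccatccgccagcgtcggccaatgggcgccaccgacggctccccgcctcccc

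The Gadd45g window held CACGTG at 142 bases, CACGAG (an N-box) at 127 bases and CAGCTG at 55 bases before the start site. CACGTG was found in 6.02% of 32851 promoters of the same length, CAGCTG in 13.0% and the N-box in 36.7%; the E-box that was not found in these windows, CAGATG, was in 14.4%. The Gadd45b window held CACGTG at 185 bases. The Gadd45a window held a p53 half-site at 40 bases, a motif found in 7.13% of the promoters. The Btg2 window held the RBPJ core, in its reverse form TTCCCA, at 176 bases, and TGACGTCA at 166 bases; these were in 21.6% and 1.55% of all promoters. Among the windows not printed, those of Bax and Mdm2 also held a p53 half-site, at 201 and 186 bases. CACGTG was also in the Bax window and in a Bbc3 window. The Bcl2 window held none of the motifs. A match describes letters only.

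Among the 3 GADD45 genes, Gadd45g had much higher RNA with DAPT at 24 h, and at 48 h every library of both DAPT-treated sorts lay above both controls. Gadd45g had 494.5, 436.8 and 556.3 CPM in the 3 DAPT libraries and 18.38, 11.19 and 19.42 CPM in the 3 DMSO libraries. Every DAPT library lay above every DMSO library. Its means were 495.9 ± 59.8 and 16.3 ± 4.5 CPM (SD, 3 libraries per group), a log2 fold change of 4.93 ± 0.21 (SE). The hair cell marker sum in these libraries was 4795 to 8019 CPM with DAPT and 1867 to 2249 CPM with DMSO, and its part in the 24 h differences of this and the other genes was not tested.

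At 48 h, Gadd45g had 138.3, 389.9 and 69.14 CPM in permissive, 34.35, 32.55 and 112.3 CPM in nonpermissive, and 5.61 and 0.8559 CPM in control libraries. The permissive and nonpermissive values overlapped, and both lay above the control values. Against control, Gadd45g rose in permissive cells by 5.87 ± 1.04 on the log2 scale (edgeR quasi-likelihood test, Benjamini-Hochberg adjusted p = 0.00214). It was the 1 called gene of the 8 members tested; 13% of all 13411 genes were called in this comparison, 5.72% higher and 7.28% lower. The size rests on single libraries: the log2 fold change was 7.80 without control replicate 1, 5.06 without control replicate 2 and 4.94 without permissive replicate 2, with adjusted p of 0.00607, 0.0196 and 0.00463.

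In nonpermissive cells Gadd45g had a log2 fold change of 4.14 ± 0.96 against control, which did not pass the edgeR test (adjusted p = 0.171), with 3 of 3 libraries above both controls. DESeq2 gave an adjusted p of 0.000154, and edgeR without a filter on low counts gave 1.67e-07. Adjusted p ranged from 0.0912 to 0.655 when 1 library was left out. No member was called in this comparison by edgeR, while 2 of 8 reached an unadjusted p under 0.05 and DESeq2 called 1; 0.194% of all genes were called, 0.0671% higher and 0.127% lower. Hair cell markers were 296.3 to 372.8 CPM in these nonpermissive libraries and 152.9 to 280.5 CPM in controls. Endothelial markers summed to 227.3, 109.6 and 277.4 CPM in the nonpermissive and 14.77 and 55.35 CPM in the control libraries. The part of either marker set in the difference of Gadd45g was not tested. Between permissive and nonpermissive cells the log2 fold change was 1.73 ± 0.71 (adjusted p = 0.134), and 0.80 without permissive replicate 2. DESeq2 gave an adjusted p of 0.058 there, and edgeR without a filter on low counts called it, at 1.74 with an adjusted p of 0.00429.

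Gadd45a, a direct p53 target, overlapped between DAPT and DMSO at 24 h and was higher in permissive than in nonpermissive cells at 48 h, without passing the test. It had 10.26, 12.4 and 11.24 CPM with DAPT and 10.93, 12.02 and 10.16 CPM with DMSO at 24 h, overlapping values. At 48 h it had 14.44, 16.74 and 10.11 CPM in permissive, 3.63, 5.139 and 3.2 CPM in nonpermissive, and 5.984 and 6.562 CPM in control libraries. All permissive values lay above, and all nonpermissive values below, the control values. Permissive against nonpermissive gave a log2 fold change of 1.80 ± 0.65 with 3 of 3 libraries higher, which did not pass the test (adjusted p = 0.0908; 0.105 to 0.228 without 1 library). In that comparison edgeR called 0 of 8 members and DESeq2 0, and 3 had an unadjusted p under 0.05, while 13.1% of all genes were called, 6.78% higher and 6.35% lower.

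Gadd45b, known as a gene induced by NF-kappaB and neuronal activity, was lower with DAPT at 24 h, and lower without a call in both DAPT sorts at 48 h. It had 2.997, 5.895 and 5.433 CPM with DAPT and 10.18, 7.955 and 21.47 CPM with DMSO at 24 h, a log2 fold change of −1.46 ± 0.40 (−0.92 without DMSO replicate 3). The highest DAPT value lay below the lowest DMSO value. At 48 h it had 12.79, 24.43 and 6.065 CPM in permissive, 13.96, 4.568 and 7.68 CPM in nonpermissive, and 28.24 and 52.78 CPM in control libraries. The 6 DAPT-treated libraries lay below both controls, without a call for permissive (−1.48 ± 0.69, adjusted p = 0.190) or nonpermissive cells (−2.18 ± 0.70, adjusted p = 0.397). Both comparisons share the 2 control libraries, and control replicate 2, with the higher Gadd45b value, also held the higher mesenchyme sum; its part was not tested.

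**Figure D1:**
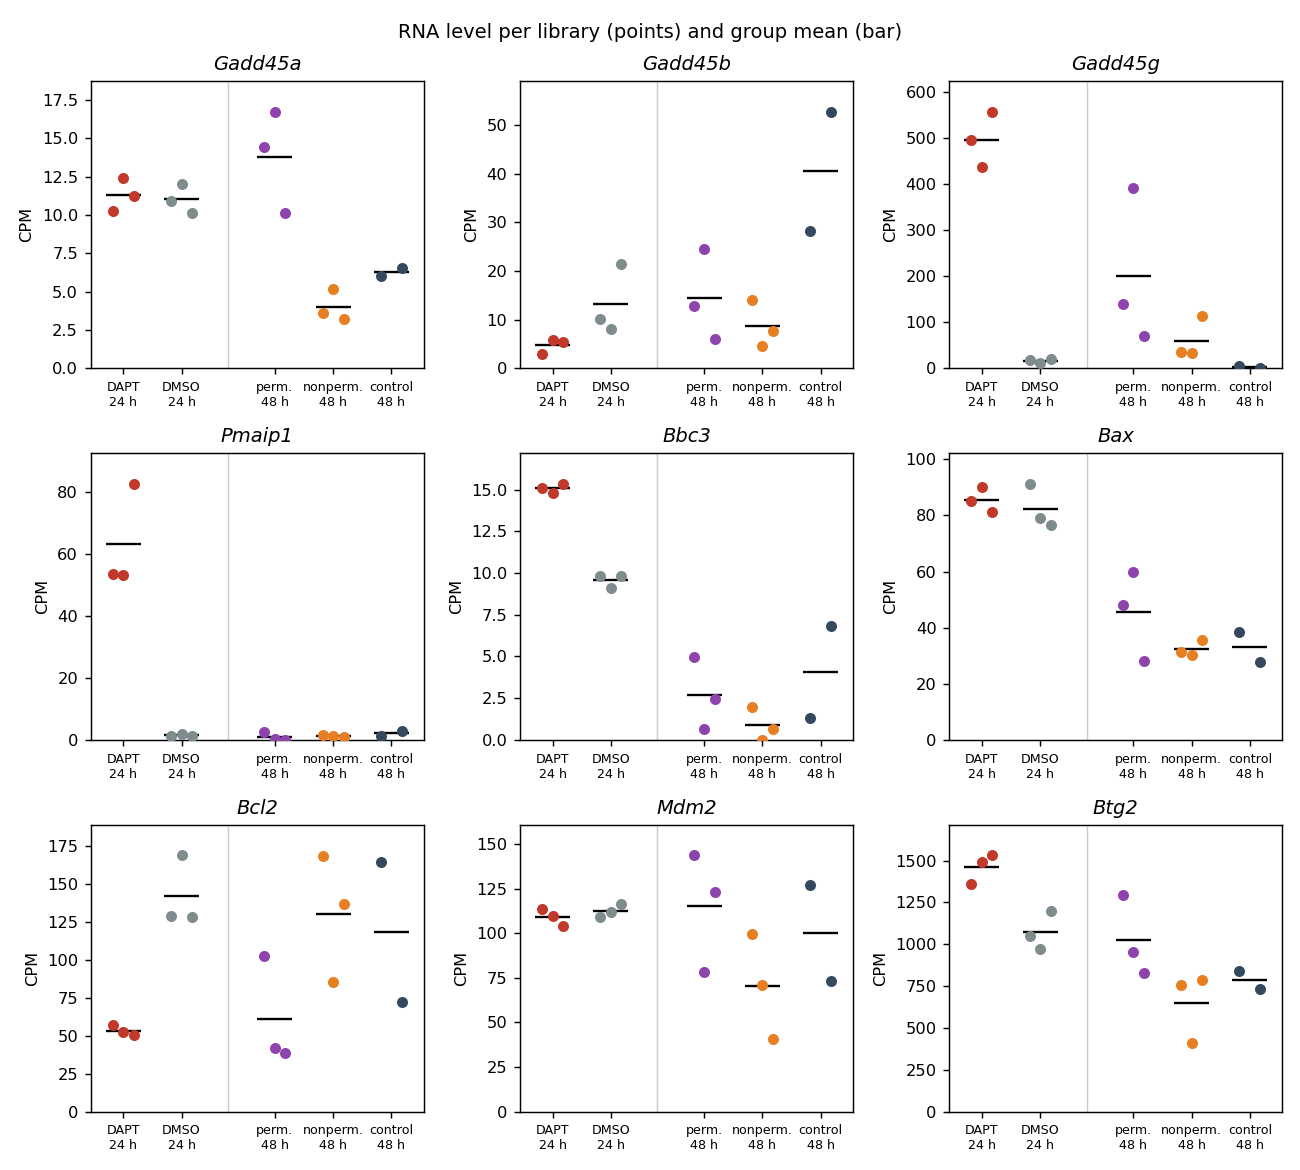
RNA level in CPM of each of the 9 genes, 1 point per library and a bar at the group mean, with DAPT and DMSO at 24 h left of the grey line and permissive, nonpermissive and control cells at 48 h right of it. Gadd45g and Pmaip1 are highest with DAPT at 24 h, and at 48 h Gadd45g is at 69.14 CPM or more in permissive cells while Pmaip1 is at 2.853 CPM or less in every library.

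The BH3-only gene Pmaip1, whose product NOXA binds MCL1 and lowers survival capacity, was high with DAPT at 24 h and near 0 elsewhere. It had 53.58, 53.06 and 82.71 CPM with DAPT at 24 h and 1.131, 2.072 and 1.337 CPM with DMSO. The DAPT libraries held 2175 reads of it in all and the DMSO libraries 52. The log2 fold change was 5.36 ± 0.28, the largest of the 9 genes at 24 h. At 48 h it had 2.476, 0.3347 and 0 CPM in permissive, 1.675, 1.142 and 0.96 CPM in nonpermissive, and 1.309 and 2.853 CPM in control libraries. Those are 13, 11 and 17 reads per group, and the gene was removed by the filter on low counts. A count of 3 reads corresponds to 0.561 to 1.71 CPM in these libraries, so differences near that level between the 48 h groups could not be resolved. The highest 48 h value was 2.853 CPM, in a control library, below every DAPT value at 24 h.

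Bbc3, which encodes the p53-inducible killer PUMA, was 1.58-fold higher with DAPT at 24 h, at 15.07, 14.81 and 15.36 CPM against 9.803, 9.115 and 9.801 CPM with DMSO. The log2 fold change was 0.66 ± 0.13 and the values did not overlap. At 48 h Bbc3 was sparse, at 4.952, 0.6694 and 2.426 CPM in permissive, 1.955, 0 and 0.64 CPM in nonpermissive, and 1.309 and 6.847 CPM in control libraries. Those groups overlapped in every comparison. Bax, the pore-forming effector, was at 85.5 ± 4.6 CPM with DAPT against 82.3 ± 8.0 CPM with DMSO (SD), a difference within its spread. At 48 h it was at 45.4 ± 16.0, 32.4 ± 2.8 and 33.1 ± 7.7 CPM in permissive, nonpermissive and control cells. Its 48 h log2 fold changes lay between −0.03 and 0.49, and none passed the test.

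Bcl2, the survival protein that binds BAX, was lower with DAPT at 24 h, at 57.21, 52.83 and 50.58 CPM against 129, 169 and 128.4 CPM with DMSO. The values did not overlap and the log2 fold change was −1.41 ± 0.12. At 48 h it had 102.6, 41.84 and 38.82 CPM in permissive, 168.7, 85.65 and 137 CPM in nonpermissive, and 164.7 and 72.18 CPM in control libraries, with overlap between all groups. Permissive against nonpermissive gave −1.09 ± 0.49, not called (adjusted p = 0.180), and −1.18 (adjusted p = 0.0404) with the replicate number as a block. Within each number the permissive value was the lower one in 3 of 3 pairs, though the numbers set apart replicate 1 alone. Permissive against control gave −0.95 ± 0.54 (adjusted p = 0.299).

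Mdm2, the ubiquitin ligase by which p53 limits itself, did not differ with DAPT at 24 h beyond its spread (108.9 ± 4.7 against 112.3 ± 3.7 CPM with DMSO; log2 fold change −0.04 ± 0.08). At 48 h its level was 143.6, 78.32 and 123.3 CPM in permissive, 99.69, 70.8 and 40.64 CPM in nonpermissive and 126.8 and 73.32 CPM in control libraries, all overlapping. Btg2, an antiproliferative p53 target that recruits the deadenylase complex, was 1363, 1494 and 1531 CPM with DAPT and 1047, 972.5 and 1198 CPM with DMSO at 24 h. The log2 fold change was 0.45 ± 0.11 and the groups did not overlap. At 48 h Btg2 had 1292, 955.6 and 828.9 CPM in permissive, 756.4, 412.8 and 787.2 CPM in nonpermissive, and 839.6 and 733.5 CPM in control libraries. Permissive lay above nonpermissive in all libraries, with a log2 fold change of 0.65 ± 0.39 that did not pass the test (adjusted p = 0.329).

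**Figure D2:**
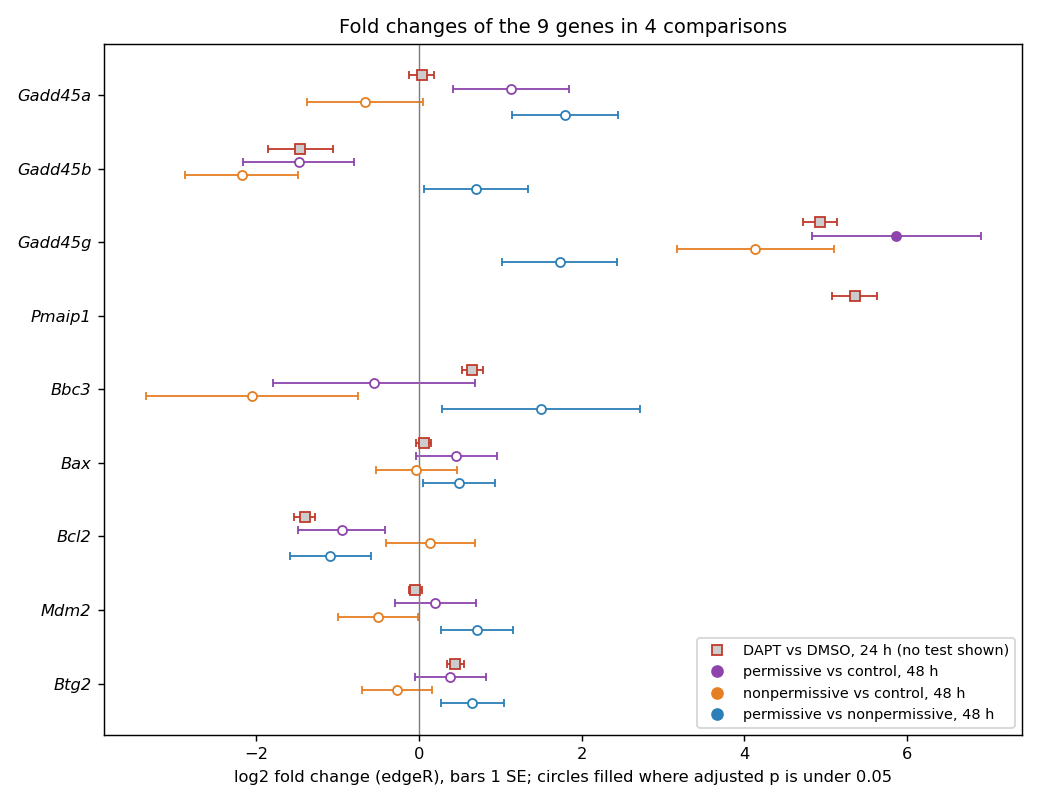
Log2 fold change with 1 SE for each gene in 4 comparisons: DAPT over DMSO at 24 h (squares, no test shown), permissive over control, nonpermissive over control and permissive over nonpermissive at 48 h (circles, filled where the adjusted p is under 0.05). The 1 filled circle is Gadd45g in permissive over control cells, at 5.87 ± 1.04; Pmaip1 has no 48 h point because of its low counts.

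The median log2 fold change of the 9 was 0.06 at 24 h, against 0.01 over all genes. At 48 h the median of the 8 tested was 0.29 in permissive and −0.39 in nonpermissive cells against control, and 0.71 in permissive against nonpermissive cells. In the same order the medians of all genes were 0.06, 0.00 and −0.00. The SE of the log2 fold changes was 0.39 to 1.31 at 48 h and 0.08 to 0.40 at 24 h, so a 48 h difference that missed the threshold does not show that the levels were alike.

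Per transcript length, in TPM, Gadd45g and Btg2 were level with each other with DAPT at 24 h (1060 ± 132 and 1059 ± 46 TPM, SD over 3 libraries). Bax followed at 219.4 ± 11.6, Mdm2 at 81.8 ± 5.2 and Pmaip1 at 47.4 ± 12.2 TPM. Gadd45a (21.7 ± 2.2) and Bbc3 (21.1 ± 1.2) differed by less than their spread, Bcl2 came next at 17.4 ± 1.3, and Gadd45b was lowest at 8.16 ± 2.56 TPM. With DMSO, Btg2 led at 787.3 ± 79.7 TPM, ahead of Bax, Mdm2 and Bcl2, and Gadd45g followed these at 35.3 ± 8.8 TPM. In permissive cells Btg2 (671.8 ± 381.3) and Gadd45g (333.5 ± 212.9) led, and in control cells Gadd45g was at 7.45 ± 8.46 TPM (n = 2), near Bbc3. The difference between Btg2 and Gadd45g in permissive cells was smaller than the SD of Btg2.

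The genes whose levels ran most like Gadd45g over the 8 libraries of 48 h, among 9448 genes, were Gm1821 (Pearson r = 0.977), Ift88 (0.968), Las1l (0.962), Utp14a (0.957) and Eif3a (0.949). For Pmaip1 they were Rap2b (0.952), Mysm1 (0.94), Pcdhb17 (0.929), 9930021J03Rik (0.929) and Msantd3 (0.926). These are descriptions over 8 libraries made with 1 kit from 1 kind of sort, and for Pmaip1 they rest on 0 to a few reads per library.

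Over all 15174 genes tested at 24 h, 25.7% were called, 11.5% higher and 14.2% lower with DAPT, and the counts of p53, apoptosis and GADD45 partner genes that follow are set beside those shares without a test of the difference. The gene lists here and below were also chosen with earlier results of these data known. Their adjusted p and calls at 24 h therefore describe these libraries and are no independent test. The lists leave out Pmaip1, Bbc3, Bcl2 and Btg2, whose 24 h differences are given above. Of 22 measured p53 targets for cell cycle arrest, repair and feedback, 3 rose and 3 fell, a share of called genes near that of all genes. Cdkn1a, the p21 kinase inhibitor, had a log2 rise of 1.05 ± 0.16 in edgeR's test (adjusted p = 0.00155), at 138.7 ± 20.9 CPM with DAPT against 67.3 ± 13.4 CPM with DMSO. Trp53inp1, a p53 cofactor, rose by 0.81 ± 0.10 (0.000669) and Trp53 itself by 0.45 ± 0.08 (0.00268). Sfn, the 14-3-3 sigma protein, fell by 4.07 ± 0.21 (4.38e-06), the DNA damage regulator Sesn1 by 0.92 ± 0.14 (0.00144) and the kinase Plk2 by 1.08 ± 0.20 (0.00463). All 6 calls remained when any 1 library was left out.

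Of 12 measured p53 targets for apoptosis none rose and 3 fell at 24 h: Dapk1, a death-associated kinase (−0.67 ± 0.10, edgeR adjusted p = 0.00137), Trp53i11 (−0.67 ± 0.14, 0.00912) and Bcl2l14 (−0.68 ± 0.15, 0.0120; 0.0571 without DAPT replicate 1). That count leaves out Pmaip1 and Bbc3, whose RNA was higher with DAPT (log2 fold changes of 5.36 and 0.66). Among 10 BH3-only and effector genes other than these, 4 rose and 1 fell. Hrk, a neuronal BH3-only gene, rose by 1.14 ± 0.14 (0.000447). Bcl2l11, which encodes BIM, rose by 0.57 ± 0.13 (0.0107; 0.0521 without DAPT replicate 1), and Bmf rose by 1.81 ± 0.48 (0.0241; up to 0.0871 without DMSO replicate 1, 2 or 3). Bok fell by 1.57 ± 0.38 (0.0154; up to 0.0621 without DMSO replicate 3 or DAPT replicate 2). Bcl2l1, the survival protein BCL-XL, rose by 1.03 ± 0.09 (5.64e-05), the 1 call among 3 measured survival genes other than Bcl2. Bcl2 itself was lower with DAPT (log2 fold change −1.41 ± 0.12). Caspases and their regulators gave 4 rises and 2 falls among 17, counting those lost when 1 library is dropped. Diablo, an antagonist of XIAP, rose by 0.53 ± 0.08 (0.00115), Casp2 by 0.51 ± 0.11 (0.0084) and the executioner Casp6 by 0.40 ± 0.10 (0.022; up to 0.0792 when DMSO 1, DMSO 3 or DAPT 1 is omitted). Xiap, a caspase inhibitor, fell by 0.62 ± 0.13 (0.00925).

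Partners of GADD45 also split at 24 h, with 2 rises and 3 falls among 15. The p38 kinases Mapk12 and Mapk13 rose by 1.41 ± 0.24 (edgeR adjusted p = 0.0031) and 0.52 ± 0.12 (0.0146; up to 0.0554 without DMSO or DAPT replicate 2). Map3k4, a kinase that GADD45 proteins activate, fell by 0.35 ± 0.10 (0.0265; up to 0.097 when DMSO 1, DMSO 3 or DAPT 2 is omitted), the JNK kinase Mapk9 fell by 0.89 ± 0.14 (0.00161) and the p38 activator Map2k6 fell by 1.39 ± 0.25 (0.00385). In bulk samples such as these, fewer cells of a type and less RNA per cell cannot be told apart. The hair cell marker sum was 4795 to 8019 CPM with DAPT against 1867 to 2249 CPM with DMSO, and its part in these differences was not tested.

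At 48 h in permissive against control cells, where 5.72% of all genes were called higher and 7.28% lower, 1 of 23 p53 arrest genes was called, Sfn, which fell by 5.08 ± 0.91 (edgeR adjusted p = 0.00233; 0.0553 without control replicate 1). Of 12 p53 apoptosis genes, Dapk1 fell by 2.79 ± 0.68 (0.0146; 0.149 without control replicate 1) and the death receptor gene Tnfrsf10b by 2.93 ± 0.80 (0.0254; up to 0.369 without control replicate 2 or permissive replicate 3). Casp8, the caspase of death receptors, fell by 2.77 ± 0.79 (0.0337; up to 0.167 without control replicate 2 or permissive replicate 2 or 3). Cdk1, a mitotic kinase bound by GADD45 proteins, rose by 3.76 ± 0.86 (0.0103; up to 0.0898 without control replicate 1 or 2). Mapk12 and Mapk13, p38 kinases, had adjusted p of 0.0488 and 0.0495, lost without most single libraries (up to 0.270 and 0.262). Among 10 BH3-only and effector genes edgeR called 0 and DESeq2 0, and 2 had an unadjusted p under 0.05. With the replicate number as a block, Casp8 and Mapk12 had adjusted p of 0.0766 and 0.105.

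In permissive against nonpermissive cells, 1 of 5 measured survival genes of the BCL2 family rose and 2 fell, while 6.78% of all genes were called higher and 6.35% lower; of the 3 calls, that of Bcl2a1b remained when any 1 library was left out. Bcl2l1 was 212.4 ± 76.3 CPM in permissive and 40.0 ± 32.0 CPM in nonpermissive cells, a log2 rise of 2.40 ± 0.56 in edgeR's test (adjusted p = 0.0117; 0.0529 without nonpermissive replicate 3). Among the BH3-only genes, Bcl2l11 was at 15.6 ± 3.0 CPM in permissive and 54.2 ± 22.6 CPM in nonpermissive cells, a fall of 1.79 ± 0.54 (0.0436; up to 0.153 without any 1 of nonpermissive replicates 1 and 3 and permissive replicates 1, 2 and 3). Trp53inp1 rose by 1.66 ± 0.52 (0.0493; up to 0.168 without any 1 of nonpermissive replicates 1, 2 and 3 and permissive replicates 1 and 3). Of p53 targets, Ccng2, a cyclin, fell by 1.34 ± 0.41 (0.0456; up to 0.142 without any 1 library other than control replicate 2), Dapk1 by 2.42 ± 0.64 (0.0221; up to 0.118 without nonpermissive replicate 1 or permissive replicate 3) and Bcl2l14 by 2.10 ± 0.63 (0.0428; up to 0.131 without any 1 library other than control replicate 2 and permissive replicate 3). Those are 1 rise and 1 fall among 23 arrest genes and 2 falls among 12 apoptosis genes, the last count being 4 with the replicate number as a block; the BH3-only count of 1 fall among 10 became 2. Bcl2a1b and Bcl2a1d, near-identical survival genes that the counting could split, held 1 and 0 reads in permissive cells, 102 and 13 in nonpermissive cells and 48 and 31 in control cells. Bcl2a1d was at least 1.76-fold lower in permissive than nonpermissive cells and at least 3.85-fold lower than in control cells, taking 3 counts per library. Against nonpermissive cells the adjusted p was 0.00532 for Bcl2a1b and 0.0485 for Bcl2a1d (up to 0.12 without any 1 library; 0.0845 with the block). Against control cells it was 0.0188 for Bcl2a1b (up to 0.063 without control replicate 1 or permissive replicate 1 or 2) and 0.0212 for Bcl2a1d (up to 0.104 without control replicate 1 or 2 or permissive replicate 1). Blood and macrophage markers summed to 60.87 to 258 CPM in permissive, 27.98 to 127 CPM in nonpermissive and 43.38 and 72.18 CPM in control libraries, with 4 to 10, 1 to 4 and 0 to 3 of 12 markers at 0; their part was not tested. In nonpermissive against control cells, where edgeR called 0.194% of all genes, it called 0 of 116 pathway genes. DESeq2 called 2 of the 116, and 13 had an unadjusted p under 0.05 in edgeR.

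Peaks within 100 kb of the 9 genes formed 583 ATAC and 342 H3K27ac regions once overlapping peaks of the 6 lists were merged. A region counted as gained where both lists of a group held a peak and neither list of its comparison group did, and as lost in the reverse case. The fold enrichment and q values of peaks are the authors' own and describe peaks within a list. In permissive against control cells 12 ATAC regions were gained (2.06%, against 3.2% of 362119 regions genome-wide) and 14 were lost (2.40% against 2.44%). H3K27ac regions were gained at 18 places (5.26%, against 3.93% of 232564) and lost at 13 (3.80% against 1.74%).

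In nonpermissive against control cells, H3K27ac was gained at 15 regions (4.39% against 1.75%) and lost at 2 (0.585% against 0.402%), and ATAC at 7 (1.20% against 1.14%) and 6 (1.03% against 1.36%). In permissive against nonpermissive cells, H3K27ac was gained at 8 regions (2.34% against 2.9%) and lost at 19 (5.56% against 2.36%), and ATAC at 12 (2.06% against 3.16%) and 17 (2.92% against 2.13%). With only peaks of −log10 q of at least 5, the H3K27ac shares lost in permissive cells were 0% against control and 2.52% against nonpermissive cells. Bcl2 alone held 101 of the 342 H3K27ac regions. Of those lost in permissive cells, it held 9 of the 19 against nonpermissive and 6 of the 13 against control cells. The regions of 1 gene share a locus and no test was made of these shares. The lists differ in length. H3K27ac lists held 114572 and 72430 peaks in permissive, 93900 and 46284 in nonpermissive and 57839 and 55391 in control samples. ATAC lists held 87089 and 170984 distinct peaks in permissive, 110227 and 127066 in nonpermissive and 129755 and 105431 in control samples. The permissive ATAC lists were thus the shortest and the longest, which limits what both can hold. The depth behind the lists is unknown.

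Gadd45g was open at its start site in all 6 samples and had an H3K27ac peak there in the 4 lists of DAPT-treated cells and in neither control list. The ATAC region chr13:51846400-51846862 (mm10) covers the promoter window printed above and was present in all 6 lists. The H3K27ac region chr13:51845044-51846789, over the start site, was present in both permissive lists (fold enrichment 5.623 and 6.376) and both nonpermissive lists (6.799 and 7.179), and in neither control list. Its −log10 q was 5.428 to 12.16 in the 4 lists. A second region in the 3′ part of the gene and beyond, chr13:51847886-51850472, had the same pattern, with −log10 q from 1.943 to 8.547. The H3K27ac list of nonpermissive replicate 2, which held both peaks, had 46284 peaks, and the control lists had 57839 and 55391. The part of list length or depth in the absence from the control lists was not tested. A permissive-only ATAC region lay 11743 bases downstream of the start site (chr13:51858418-51858785, −log10 q of 2.729 and 2.795), outside annotated genes. Nearer ATAC regions lay 553 bases (chr13:51847228-51847503) and 2400 bases (chr13:51849075-51849759) downstream. The first was in both nonpermissive lists only, and the second in these and permissive replicate 2. Against control, 2 of 68 ATAC regions were gained in each sort, beside 3.2% (permissive) and 1.14% (nonpermissive) genome-wide. RNA of Gadd45g in the same sorts was 199.1 ± 168.8 CPM in permissive, 59.7 ± 45.5 CPM in nonpermissive (SD, 3 libraries per group) and 3.23 ± 3.36 CPM in control cells (2 libraries).

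Gadd45a had an H3K27ac and an ATAC region over its start site in all 6 lists each, the H3K27ac peak being weak in permissive replicate 2 (−log10 q of 0.284). A further pair lay upstream, within the noncoding gene E230016M11Rik: ATAC chr6:67049007-67049966, 11600 bases from the start site (fold enrichment 3.89 and 12.14), and H3K27ac chr6:67047871-67048824, 10464 bases away (4.961 and 3.188). Both were in the 2 permissive lists and in none of the other 4, and the H3K27ac peak of permissive replicate 2 had a −log10 q of 1.001. The opposite pattern was seen 26155 bases downstream in Gng12, where the H3K27ac region chr6:67010142-67011252 had fold enrichments of 6.207 and 7.179 in nonpermissive and 6.467 and 4.114 in control lists and no peak in either permissive list. Gadd45b had an ATAC region over its start site in all 6 lists, and an H3K27ac region (chr10:80928581-80930136) in 5 of 6, missing in permissive replicate 2. The H3K27ac region chr10:80939620-80940141, 9529 bases downstream, was in both nonpermissive and both control lists and in neither permissive list. Next to it, the ATAC region chr10:80939166-80939423, 9075 bases downstream, was in both permissive lists (fold enrichment 3.533 and 4.029) and in none of the other 4.

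**Figure D3:**
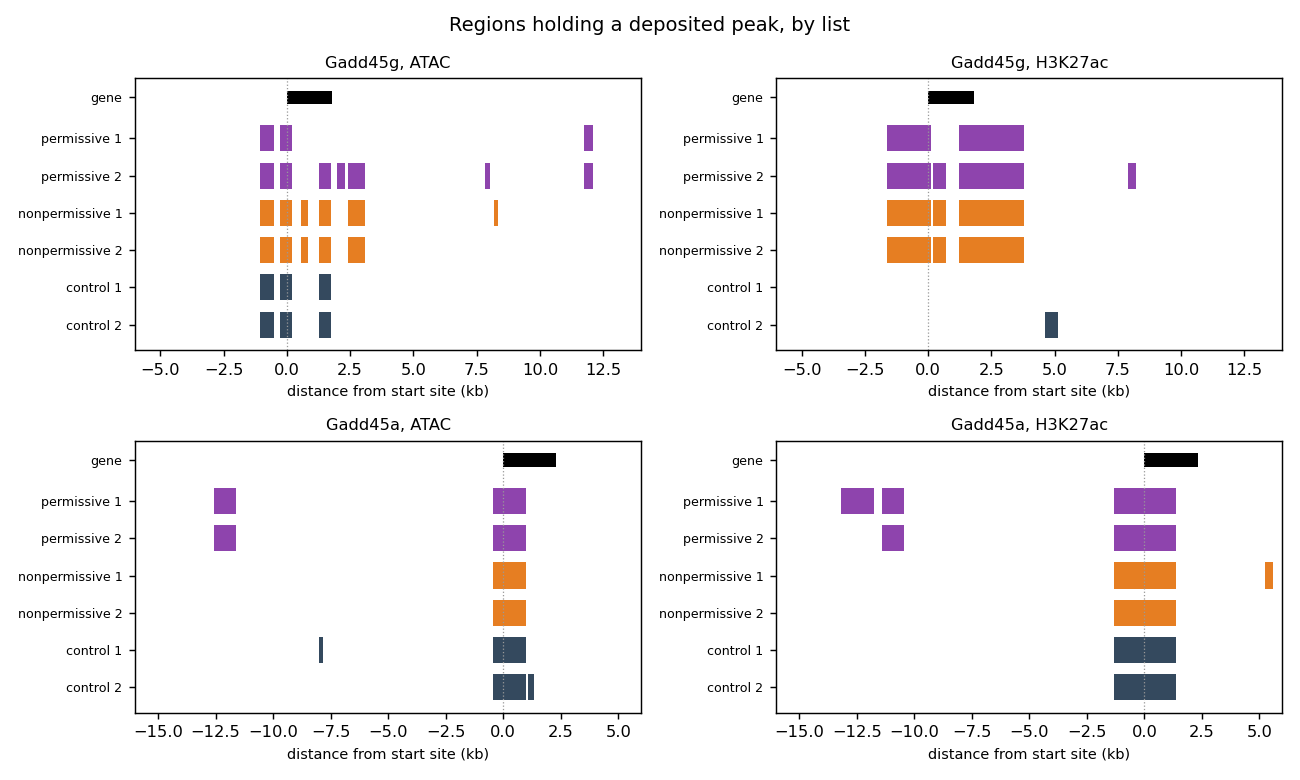
Regions with a deposited peak in each of the 6 lists (rows) around Gadd45g and Gadd45a, as distance from the start site in kb, for ATAC (left) and H3K27ac (right); the black bar is the gene. H3K27ac at the Gadd45g start site appears in the permissive and nonpermissive rows and not in the control rows, and the regions 11600 and 10464 bases upstream of Gadd45a appear in the permissive rows only.

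At Bcl2 the start site was open in all 6 lists. H3K27ac just inside the gene (chr1:106712529-106714215) was present in the 4 DAPT lists, weakly in permissive replicate 2 (−log10 q of 0.284), and in neither control list. Over the whole gene body, H3K27ac peaks lay in 15 and 8 of 60 regions in permissive, 36 and 11 in nonpermissive, and 23 and 14 in control lists. Some of these regions had no peak in either permissive list. One of them, chr1:106628994-106632442, 81848 bases from the start site, had fold enrichments of 19.51 and 3.916 in nonpermissive and 6.467 and 3.6 in control lists; its −log10 q was 1.995 in nonpermissive replicate 2 and 1.624 in control replicate 2. Regions 101198 and 109617 bases into the gene, picked after their values were seen, had the same presence pattern. Upstream, an ATAC region in Kdsr (chr1:106736995-106737460) was also in the nonpermissive and control lists and in neither permissive list. In all, 9 of 101 H3K27ac and 5 of 100 ATAC regions of Bcl2 were lost in permissive against nonpermissive cells. Genome-wide, 2.36% of H3K27ac and 2.13% of ATAC regions were lost. At Bcl2, 0 H3K27ac and 2 ATAC regions were gained, beside 2.9% and 3.16% genome-wide, and no test was made. Bcl2 RNA in the same sorts was 61.1 ± 36.0 CPM in permissive and 130.4 ± 41.9 CPM in nonpermissive cells.

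**Figure D4:**
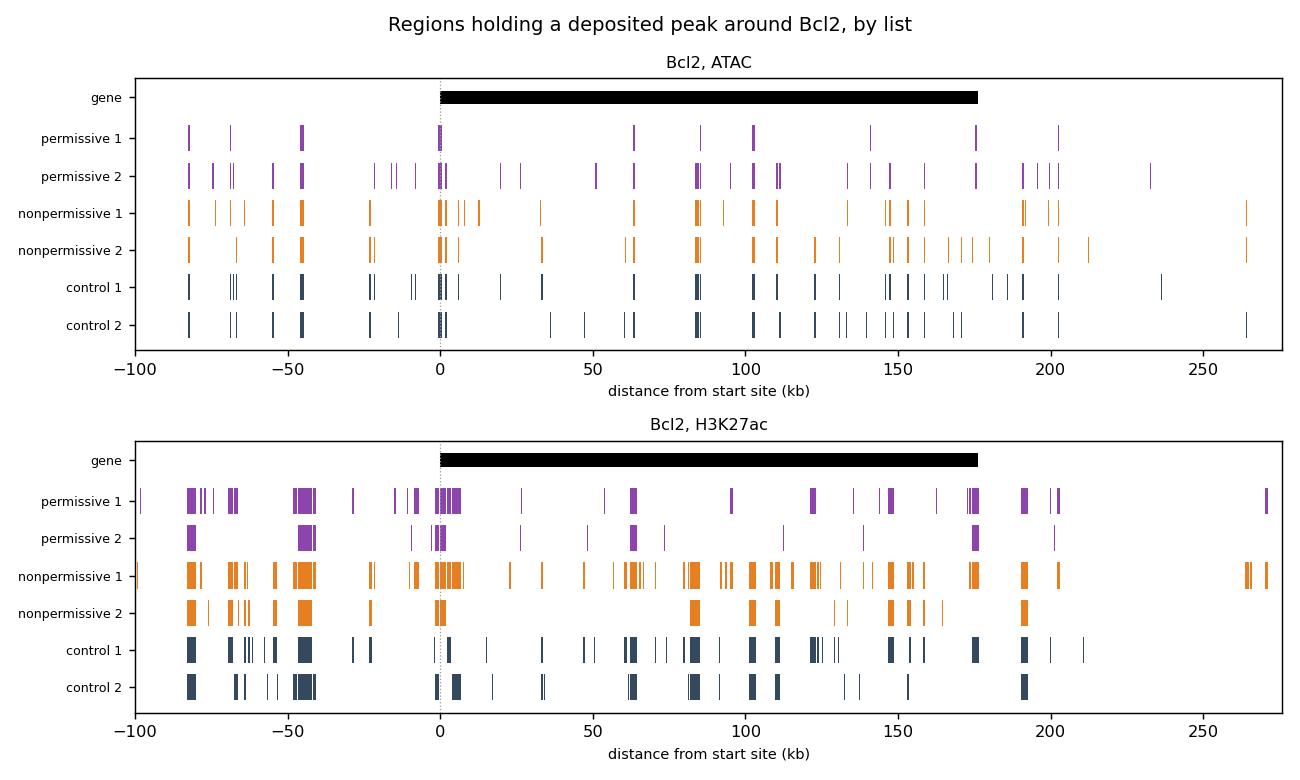
Regions with a deposited peak in each of the 6 lists (rows) from 100 kb before to 100 kb beyond Bcl2, as distance from the start site in kb, for ATAC (top) and H3K27ac (bottom); the black bar is the gene. The H3K27ac regions 81848, 101198 and 109617 bases into the gene appear in the nonpermissive and control rows and not in the permissive rows.

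Pmaip1 had an ATAC region over its start site (chr18:66458205-66458954) in all 6 lists and no H3K27ac region there in any. Positions at Bbc3 are counted from the listed gene start, chr7:16308398. The Bbc3 promoter windows begin further in, at 16309333, 16310011 and 16310181, and merged ATAC regions covered all 250 bases of each. Bbc3 had ATAC regions 661 and 1588 bases into the gene in all 6 lists, and 4 H3K27ac regions within the gene. Of these, the regions 227 and 1233 bases in were found in permissive replicate 1 alone, that 2546 bases in was found in permissive replicate 2 alone, and that 5267 bases in was found in permissive replicate 2 and nonpermissive replicate 1. No control list held a peak in any of the 4. H3K27ac 24647 bases upstream of Bbc3, in Ccdc9, was in the 4 DAPT lists and in neither control list. Bax and Mdm2 had ATAC at the start site in all 6 lists and H3K27ac in 4 and 5 of 6. Btg2 had both in all 6 lists; H3K27ac chr1:134079953-134080715, 798 bases upstream, was in both permissive lists only (−log10 q of 7.831 and 1.943). Mdm2 lost 2 H3K27ac regions near Slc35e3 in permissive cells that were in both nonpermissive and both control lists.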

How the data were processed

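RNA was measured in 14 of 26 samples, ATAC in 6 and H3K27ac in 6. The authors deposited RSEM expected counts and TPM per gene for each RNA sample, per the file headers, and narrowPeak lists whose fold enrichment (a ratio) and −log10 p-values and −log10 q-values per peak are the authors' own. The submitters' processing notes name STAR, RSEM, DESeq2, Bowtie2, MACS2 and UMI-tools with the mm10 build, without versions or settings. Expected counts were rounded, filtered by filterByExpr and scaled by TMM; edgeR 4.0.16 (quasi-likelihood test, two-sided) in R 4.3.3 with limma 3.58.1 gave log2 fold changes, with SE as the fold change over the square root of F, and Benjamini-Hochberg adjusted p over all genes tested. DESeq2 1.42.0 was an alternative. The 8 libraries of 48 h shared 1 fit. CPM is per TMM-scaled library. Of 48709 identifiers, 48349 (99.26%) matched a symbol, by identifier without version.

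The 9 genes and the gene lists were chosen with earlier results of these data known. Named genes were the 9 genes, up to 3 rises and 3 falls per list and comparison with the smallest adjusted p, the 5 genes most like Gadd45g and Pmaip1 among those with a mean log2 CPM of at least 3, and the start-site region and up to 3 nearest gained and lost regions per gene, of which the text gives a selection. One gene of these lists, included in the counts, is not reported here. Bounds use 3 counts per library and cover counting error only. Nothing in the labels ties replicates to separate animals, so p-values speak only for the variation among these libraries, which could be technical. Same-numbered permissive and nonpermissive samples of 48 h deviated together (r = 0.574, 0.151 and 0.127 over 7463 genes), all above 0.1. They were read as pairs only in the replicate block and for the Bcl2 values, and the main fits held no replicate term. Replicates 2 and 3 correlated as well across numbers (0.186 and 0.137), so the numbers set apart replicate 1 alone. What same-numbered samples share is not labelled. Pmaip1 was taken as lying on the plus strand from general knowledge. Peaks were merged where they overlapped by 1 base. The simulated-data check ran on random counts made from the mean levels and spread of the real samples, with fold changes planted. Its outcome is not given here, and no result above rests on it.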

Additional observations from a re-analysis of the deposited data

How the results depend on the processing

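The call of Gadd45g in permissive against control cells remained under every alternative tried (log2 fold change 4.94 to 7.80), and none moved the direction of Gadd45g, Gadd45b or Bcl2 at 24 h. Over all genes, nonpermissive against control gave 26 calls, and 154 with DESeq2, 302 with no filter on low counts, 49 with only the compared groups in the fit and 2 to 40 without 1 library. Members called there were 0, and 1 (Gadd45g) with DESeq2 or with no filter; between permissive and nonpermissive cells they were 0, and 1 with no filter (Gadd45g) or with the replicate block (Bcl2). Genes called numbered 2573 to 4948 at 24 h, 1066 to 1738 in permissive against control and 1215 to 1796 in permissive against nonpermissive cells when 1 library was left out. The replicate block changed the call of Bcl2 in permissive against nonpermissive cells (−1.183, adjusted p = 0.0404) and no other call of the 9 genes; at 24 h, same-numbered samples did not deviate together (r = 0.00705, −0.047 and −0.0748), and the block gave 3328 calls against 3900. Direction changed for Bax in nonpermissive against control cells (0.0984 with the block), and without 1 library for Bax there (−0.3129 to 0.2239), Gadd45a at 24 h (−0.03702 to 0.09749), Bbc3 (−1.308 to 0.95) and Mdm2 (−0.2226 to 0.6566) in permissive against control and Bcl2 in nonpermissive against control cells (−0.3928 to 0.8536). Without control replicate 1 the median of all genes shifted to 0.1433 and 0.1244. The causes were not tested.

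Of peaks with −log10 q of at least 5, ATAC regions gained were 5.08% (permissive against control; 3.74% of all such regions) and 4.06% (permissive against nonpermissive; 3.77% of all), and H3K27ac regions lost were 0%, 0% and 2.52% in permissive cells against control, in nonpermissive cells against control and in permissive cells against nonpermissive (0.754%, 0.0489% and 1.54% of all), with 0% gained in the last (0.533% of all). Within 10 kb, 0.0% of ATAC regions were lost in nonpermissive against control cells (1.36% of all regions) and 0.833% of H3K27ac regions gained in permissive against nonpermissive cells (2.9% of all). With 1 list left out, a region needs 1 list of that group instead of 2, so the shares rise by construction, near the 9 genes and over all regions. Near the 9 genes, ATAC gained shares were then 2.8 to 21.2% (permissive against control), 3.04 to 22.1% (permissive against nonpermissive) and 2.24 to 13.4% (nonpermissive against control), and lost shares 2.88 to 16.0%, 3.24 to 15.9% and 1.9 to 14.2%. H3K27ac gained shares were 6.91 to 33.2%, 2.4 to 25.0% and 6.67 to 21.0%, and lost shares 4.79 to 14.7%, 7.53 to 19.5% and 0.901 to 10.5%, in the same order. Over all regions, ATAC gained shares were 3.99 to 27%, 4.01 to 27.3% and 1.69 to 14.7%, ATAC lost shares 2.85 to 15.9%, 2.51 to 15.7% and 2.03 to 14.8%, H3K27ac gained shares 5.15 to 39.7%, 3.25 to 34.3% and 3.27 to 22.1%, and H3K27ac lost shares 2.52 to 10.7%, 3.35 to 20.7% and 0.565 to 8.0%. Bbc3 could not be fitted at 48 h under 1 of the 8 omissions. Depth limits Pmaip1 and Bbc3 at 48 h.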

Other observations

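Of 13 measured genes of the integrated stress response, 3 fell and 0 rose (1 rise with the replicate block) in permissive against nonpermissive cells at 48 h, where 6.35% of all genes were called lower and 6.78% higher: Atf3, a stress-induced transcription factor, with a log2 fall of 3.26 ± 0.51 in edgeR's test (adjusted p = 0.00102), Xbp1, a factor of the unfolded protein response, by 1.84 ± 0.37 (0.00517) and Hspa5, the endoplasmic reticulum chaperone BiP, by 1.80 ± 0.39 (0.0078). Atf3 was at 11.0 ± 5.1 CPM in permissive, 106.6 ± 45.1 CPM in nonpermissive and 61.0 ± 4.4 CPM in control cells (SD over 3, 3 and 2 libraries). These 3 calls remained without any 1 library. Against control cells 4 of 13 were called lower, beside 7.28% of all genes. Atf3 fell by 2.45 ± 0.53 (0.00735) and kept its call without any 1 library, while the calls of Hspa5 (−1.61 ± 0.42, 0.0213), Ppp1r15a (−1.88 ± 0.51, 0.0258) and Xbp1 (−1.40 ± 0.40, 0.0333) were each lost without any 1 of 4 libraries (up to 0.0871, 0.0954 and 0.144). Those were both control libraries with permissive replicates 1 and 2 for Hspa5 and Xbp1 and permissive replicates 2 and 3 for Ppp1r15a; Xbp1 was also at 0.0501 with no filter on low counts. At 24 h this list had 2 rises and 3 falls among 14, with Asns up by 0.37 ± 0.08 (0.0126; 0.058 without DAPT replicate 1), Atf4 up by 0.46 ± 0.11 (0.0161; up to 0.0697 without DMSO or DAPT replicate 2), Cebpb down by 0.63 ± 0.13 (0.00867), Xbp1 down by 0.39 ± 0.09 (0.0112) and Hspa5 down by 0.38 ± 0.09 (0.0175; up to 0.0694 without DAPT replicate 1 or 2).

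With 25.7% of all genes called at 24 h, edgeR called 0 of 11 BTG and TOB family genes and deadenylase subunits other than Btg2. DESeq2 called 0 of them, and 2 had an unadjusted p under 0.05. Btg2 itself was higher with DAPT at 24 h (log2 fold change 0.45 ± 0.11). Btg1, the 1 call among the 11 in permissive against nonpermissive cells, fell by 1.41 ± 0.35 (edgeR adjusted p = 0.0166, and 0.0627 without permissive replicate 2). In that comparison 6.35% of all genes were called lower and 6.78% higher. Of 8 DNA demethylation partners of GADD45, edgeR called 1 at 24 h, beside 25.7% of all genes. It was Apex1, a repair nuclease, which rose by 0.31 ± 0.09 (edgeR adjusted p = 0.0296). Its adjusted p was up to 0.114 with any 1 of 4 libraries left out, DMSO 2 and 3 and DAPT 1 and 2.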
